A study of Mus musculus with 10 samples.

Results

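The ubiquitin ligases tied to muscle wasting and sarcomere turnover, with the Foxo factors that drive their genes, were followed in fast hindlimb muscle of the mouse. The 10 genes were taken by their symbols on the array, and all 10 were measured, among 19938 genes in all. They were the F-box genes Fbxo32, Fbxo30 and Fbxo40, the tripartite motif genes Trim63, Trim54, Trim55 and Trim32, the ligase gene Cblb, and the transcription factor genes Foxo1 and Foxo3. Each was read by 1 probe set, a group of short probes for one gene.

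Muscle removes its proteins largely through the ubiquitin-proteasome pathway, in which an activating enzyme and a conjugating enzyme pass ubiquitin to a ligase, and the ligase picks the substrate. Fbxo32 (MAFbx) and Trim63 (MuRF1) are the best known of these ligases in skeletal muscle, where their RNAs are raised by fasting, denervation, disuse and glucocorticoids. Foxo1 and Foxo3 bind and activate both genes when insulin and Akt signaling is low. Trim63 belongs with Trim55 (MuRF2) and Trim54 (MuRF3) to a family that binds titin or microtubules in the sarcomere.

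Signals were read on Affymetrix Mouse Gene 1.0 ST arrays and are on a log2 scale. In the tibialis anterior of the shin (TA), which is made mainly of fast fibers, 10 µg of plasmid was electroporated into C56BL6N mice aged 8 weeks, and fibers with green fluorescence were dissected 2 weeks later. The methods give the age at electroporation both as 8 weeks and as 10 weeks. The plasmid carried an shRNA against linc-MYH, a long non-coding RNA of the fast myosin locus, on 2 arrays (shlinc-MYH) and was the control vector on 2 arrays; for such experiments the methods describe an shRNA against LacZ in the opposite leg. In gastrocnemius, the fast calf muscle, 3 arrays were of cSix1 KO mice and 3 of wild type mice, all labelled C56BL6N and 8 weeks old, with no plasmid. The cSix1 KO mice are a conditional knockout in which Cre is driven by the human skeletal actin promoter, so that the deletion is made in muscle fibers and not in the other cells of the muscle. The targeted genes were not analysed here, so the values give no check of the knockdown or the knockout. The methods state that the electroporated muscles of a condition were from different mice, without tying mice to arrays, and for gastrocnemius the sources used here do not say whether the animals differed. P-values therefore measure the spread between these samples, which may be technical.

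The fiber markers Acta1, Ckm, Myh4, Atp2a1, Ttn, Pvalb and Mb were all among the brightest probe sets of both muscles. The medians of the TA arrays lay at 5.09 to 5.14 and those of the gastrocnemius arrays at 6.6 to 6.67 (log2 signal), so signals were compared within a muscle and not between them. Replicate arrays of a group correlated over genes at 0.984 to 0.995. Signals of different genes come from different probes and were not ranked as RNA levels. In control muscle the probe set of Trim32 lay at percentile 45.9 of all genes in gastrocnemius, and the other member values lay between percentiles 75.2 and 98.0 in either muscle.

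Promoter sequence was available for 8 of the 10 genes, in 9 windows, with none for Fbxo32 and Trim55. The 250 bases before each start were searched on both strands for 2 sets of letters that do not overlap: GTAAACA, bound by Foxo factors, and the E-box CAGCTG, bound by myogenic factors such as myogenin. Of the 8 members searched, Trim63 was the one with the Foxo letters, which 3.17% of 32851 promoter windows held. The Trim63 window held them on the opposite strand, 194 to 188 bases before the start, and an E-box 72 to 67 bases before it. Fbxo40 had E-boxes in both of its windows, and Trim54 and Trim32 had 1 each, where 13% of all windows held one. The sequences of Trim63, the searched member with the Foxo letters, and of Fbxo40, the member nearest to the threshold below, are from RefSeq on GRCm38.p6, at chr4:134314870-134315119 on the plus strand and chr16:36990531-36990717 on the minus strand. They are written 5′ to 3′ with the matching letters in capitals, and that of Fbxo40 ends where the annotated gene begins, which leaves out its second E-box, 53 to 48 bases before the start. A match is a description of the letters and does not show binding.
Trim63: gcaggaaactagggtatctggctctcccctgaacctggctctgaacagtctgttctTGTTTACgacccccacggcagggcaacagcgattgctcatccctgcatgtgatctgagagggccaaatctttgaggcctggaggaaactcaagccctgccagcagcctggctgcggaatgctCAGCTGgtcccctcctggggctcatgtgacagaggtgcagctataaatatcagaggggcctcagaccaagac
Fbxo40: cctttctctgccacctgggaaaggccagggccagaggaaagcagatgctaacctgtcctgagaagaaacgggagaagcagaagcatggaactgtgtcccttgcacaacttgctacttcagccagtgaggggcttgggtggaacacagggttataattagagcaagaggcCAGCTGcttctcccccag

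The question in TA was whether loss of linc-MYH moved the wasting ligases. No ligase and no Foxo factor passed the test in shlinc-MYH fibers. Of the 10 genes, 0 were called by limma at an adjusted p under 0.05, 0 had an unadjusted p under 0.05, and the methods' t-test gave 0 before and 0 after adjustment. Over all genes limma called 0.015% (3 genes, Ankrd1, Nrk and Zdbf2, named after their values were seen) and 8.65% had an unadjusted p under 0.05, with 6.94% and 0% by the t-test. The log2 differences of the members ran from -0.32 to 0.20, with 5 above 0, 5 below 0 and a median of -0.05, against -0.03 over all genes. In a bulk sample, fewer cells of a type and less RNA per cell cannot be told apart.

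Fbxo32, the F-box subunit of a cullin ligase, gave log2 signals of 8.60 and 8.80 on the control arrays and of 8.66 and 8.44 on the shlinc-MYH arrays. Trim63, the ligase of thick filament proteins, gave 8.27 and 9.02 in control fibers and 8.90 and 8.65 in shlinc-MYH fibers. For both genes the groups overlapped, and the control arrays of Trim63 were 0.76 apart, wider than any other member in TA. The log2 difference was -0.15 (SE 0.14, 2 arrays a group, 95% interval -0.49 to 0.19, limma adjusted p = 0.819) for Fbxo32 and 0.13 (SE 0.25, interval -0.48 to 0.73, adjusted p = 0.933) for Trim63. The Trim63 value rested on single arrays: it was -0.25 without control replicate 1 and 0.51 without control replicate 2.

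The other MuRF genes did not separate either. Trim54 gave log2 signals of 8.95 and 9.56 in control fibers and 8.85 and 9.02 with shlinc-MYH, a log2 difference of -0.32 (SE 0.21, interval -0.83 to 0.19, adjusted p = 0.725). This was the lowest value among the members, and it was -0.63 without control replicate 1 and -0.02 without control replicate 2. Trim55 gave 7.09 and 7.35 in control fibers and 7.32 and 7.36 with shlinc-MYH, a log2 difference of 0.12 (SE 0.13, interval -0.21 to 0.44, adjusted p = 0.857). Its shlinc-MYH arrays lay at the upper control array.

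Fbxo30 (MUSA1), an F-box ligase of atrophying muscle that BMP signaling holds down, gave log2 signals of 7.94 and 8.19 in control fibers and 8.29 and 8.24 with shlinc-MYH. Foxo1 gave 7.15 and 7.06 in control fibers and 7.02 and 6.92 with shlinc-MYH. These were the members whose TA groups did not overlap, Fbxo30 with the higher and Foxo1 with the lower shlinc-MYH arrays, which is 2 of 10 where 39.3% of all genes did not overlap. The log2 difference was 0.20 (SE 0.13, interval -0.12 to 0.53, adjusted p = 0.731) for Fbxo30 and -0.14 (SE 0.12, interval -0.42 to 0.15, adjusted p = 0.807) for Foxo1.

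Fbxo40, a muscle F-box protein that marks the insulin receptor substrate Irs1 for removal, gave log2 signals of 8.13 and 8.50 in control fibers and 8.14 and 7.99 with shlinc-MYH, a log2 difference of -0.25 (SE 0.16, interval -0.63 to 0.13, adjusted p = 0.712). Cblb, which acts on Irs1 in unloaded muscle, gave 7.85 and 7.37 in control fibers and 7.55 and 7.45 with shlinc-MYH, and Trim32, a ligase for desmin and thin filaments, gave 7.26 and 7.44 and then 7.45 and 7.40. Foxo3 gave 6.72 and 6.36 in control fibers and 6.67 and 6.42 with shlinc-MYH. All of these groups overlapped. The log2 differences were -0.11 for Cblb (adjusted p = 0.910), 0.08 for Trim32 (adjusted p = 0.908) and 0.01 for Foxo3 (adjusted p = 0.998).

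**Figure D1:**
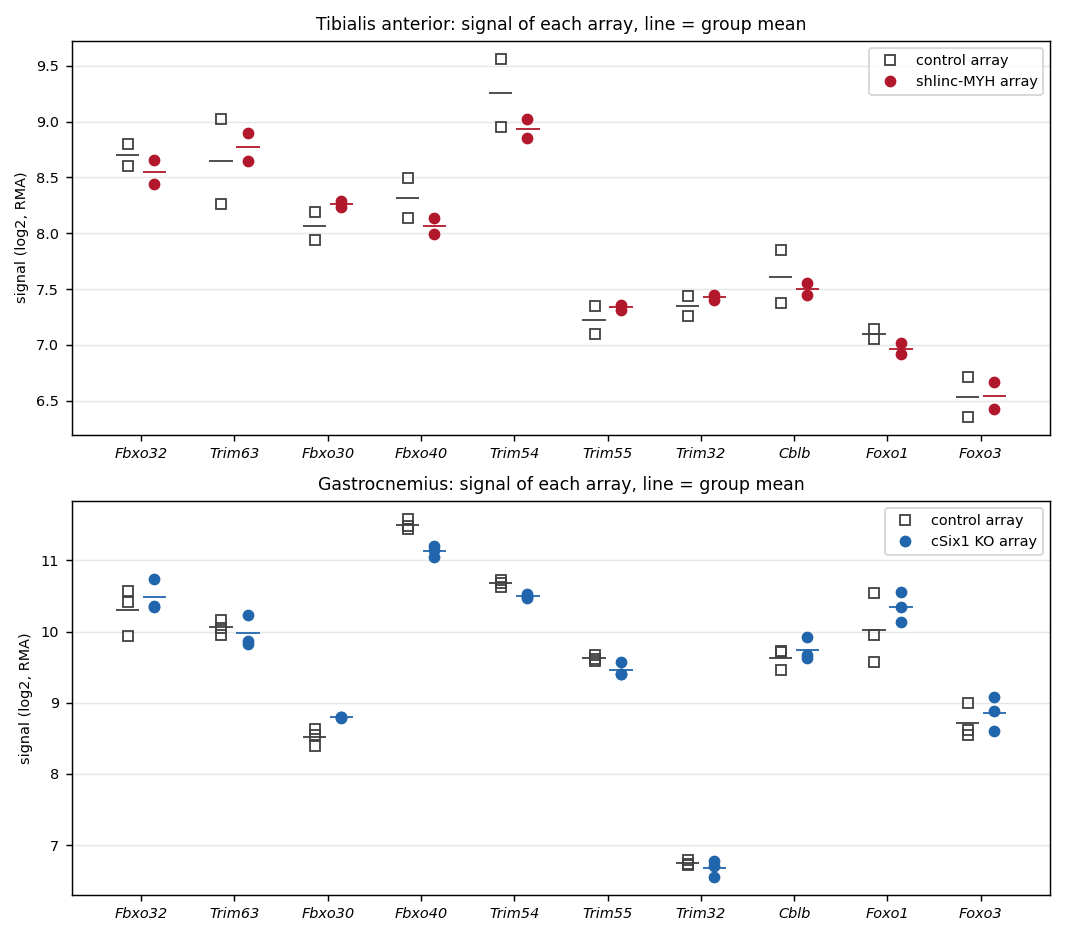
Log2 signal (y axis) of each member gene (x axis) on every array, with TA above and gastrocnemius below; open squares are control arrays, filled circles shlinc-MYH or cSix1 KO arrays, and lines group means. In TA the groups overlap for all members but Fbxo30 and Foxo1, and in gastrocnemius the cSix1 KO arrays of Fbxo40 (11.05 to 11.21) lie below the controls (11.44 to 11.58).

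In gastrocnemius the question was whether the same genes moved in cSix1 KO muscle. Again no member was called: limma called 0 of 10 at an adjusted p under 0.05, against 1.74% of all genes, and the methods' t-test called 0 after adjustment (0.0201% of all genes) and 3 before it (13.1%). An unadjusted p under 0.05 was found for 1 member with the higher signal in cSix1 KO muscle (Fbxo30) and 2 with the lower (Fbxo40 and Trim54), against 8.44% and 6.5% of all genes. The groups did not overlap for 4 of 10 members, Fbxo30 higher and Fbxo40, Trim54 and Trim55 lower in cSix1 KO muscle, against 20.9% of all genes (11% higher and 9.85% lower). The log2 differences ran from -0.37 to 0.32, with 5 above 0 and 5 below 0 and a median of 0.02, against 0.01 over all genes.

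Fbxo40 came nearest to the threshold. Its log2 signals were 11.44, 11.48 and 11.58 in control muscle and 11.05, 11.15 and 11.21 in cSix1 KO muscle. Every cSix1 KO array lay below every control array, and the log2 difference was -0.37 (SE 0.07, 3 arrays a group, interval -0.54 to -0.19), which is 0.776 of the control signal (interval 0.689 to 0.874). The limma adjusted p was 0.0595. It was 0.0452 without cSix1 KO replicate 3, and 0.0207 to 0.0433 under 4 other settings given further on, so that which side of the threshold Fbxo40 fell on depended on the setting.

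Fbxo30 gave log2 signals of 8.64, 8.40 and 8.54 in control muscle and 8.78, 8.80 and 8.80 in cSix1 KO muscle. The cSix1 KO arrays were within 0.02 of one another and above all controls, and the log2 difference was 0.27 (SE 0.08, interval 0.09 to 0.45, adjusted p = 0.145). Trim54 gave 10.69, 10.62 and 10.73 in control muscle and 10.49, 10.53 and 10.47 in cSix1 KO muscle, a log2 difference of -0.19 (SE 0.06, interval -0.33 to -0.04, adjusted p = 0.223). Trim55 gave 9.58, 9.68 and 9.61 and then 9.40, 9.57 and 9.41, a log2 difference of -0.16 (SE 0.07, interval -0.33 to 0.01, adjusted p = 0.355). The arrays of these 3 genes stood apart by group, and none of the differences passed after adjustment over all genes.

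The main wasting ligases overlapped. Fbxo32 gave log2 signals of 9.93, 10.42 and 10.56 in control muscle and 10.36, 10.34 and 10.74 in cSix1 KO muscle. Control replicate 1 was the lowest of the 6 arrays, and without it the log2 difference of 0.18 (SE 0.17, interval -0.23 to 0.58, adjusted p = 0.741) was -0.0089. Trim63 gave 10.05, 9.95 and 10.17 in control muscle and 9.87, 9.82 and 10.24 in cSix1 KO muscle, where replicate 3 was the highest and the other arrays were the lowest of all. Its log2 difference was -0.08 (SE 0.12, interval -0.35 to 0.19, adjusted p = 0.846).

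Foxo1 varied most between control arrays, with log2 signals of 10.54, 9.95 and 9.58, a range of 0.97. The cSix1 KO arrays gave 10.13, 10.55 and 10.34, inside or just above that range, and the log2 difference was 0.32 (SE 0.23, interval -0.20 to 0.84, adjusted p = 0.609). Foxo3 gave 9.0, 8.62 and 8.55 in control muscle and 8.88, 9.08 and 8.61 in cSix1 KO muscle, a log2 difference of 0.14 (SE 0.15, adjusted p = 0.776). Cblb gave 9.72, 9.46 and 9.73 and then 9.63, 9.68 and 9.93, and Trim32 gave 6.80, 6.74 and 6.73 and then 6.78, 6.71 and 6.56. Both overlapped, with log2 differences of 0.11 (SE 0.11, adjusted p = 0.744) and -0.07 (SE 0.08, adjusted p = 0.756).

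The 95% intervals, each taken for 1 gene alone, bound changes in array signal. They do not bound changes in RNA, as the processing given further on compresses bright and dim signals. In each muscle the intervals of all 10 members lay inside a 2-fold change of signal. In TA they reached down to 0.561 of the control signal (Trim54) and up to 1.66 times it (Trim63). In gastrocnemius they reached from 0.689 (Fbxo40) to 1.79 times the control signal (Foxo1), and Trim63 lay between 0.783 and 1.14 times it.

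**Figure D2:**
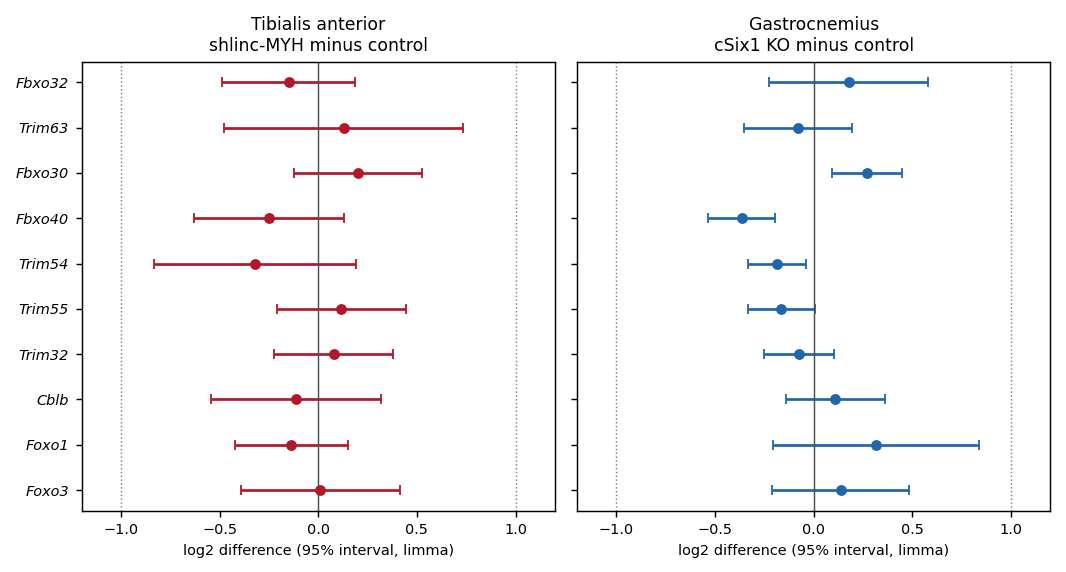
Log2 difference of each member (x axis) with its 95% limma interval (bars), shlinc-MYH minus control in TA on the left and cSix1 KO minus control in gastrocnemius on the right; dotted lines mark a 2-fold change. All bars lie inside the dotted lines, and in gastrocnemius those of Fbxo30, Fbxo40 and Trim54 do not reach 0 before adjustment over genes.

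Whether a member differed between the 2 interventions was tested as the TA difference minus the gastrocnemius difference in 1 fit of all 10 arrays. Further on this is called the difference between muscles. Muscle, intervention, electroporation and fiber dissection change together in it and cannot be told apart. Of the 10 members 0 were called by limma and 0 had an unadjusted p under 0.05, against 0.145% and 12.3% of all genes, and no other tool was run for it. The values ran from -0.45 for Foxo1 (SE 0.32, interval -1.15 to 0.24, adjusted p = 0.601) to 0.28 for Trim55 (SE 0.14, interval -0.03 to 0.59, adjusted p = 0.444), with a median of -0.10 on the log2 scale. Fbxo40 was at 0.12 (SE 0.16, interval -0.24 to 0.47, adjusted p = 0.836) and Fbxo30 at -0.07 (SE 0.14, interval -0.38 to 0.24, adjusted p = 0.895). Fbxo32 was at -0.33 (SE 0.26, adjusted p = 0.655) and Trim63 at 0.21 (SE 0.28, adjusted p = 0.826). For 9 of 10 members the interval lay within a 2-fold difference, and that of Foxo1 did not.

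Genes that work with these ligases were read as 5 further lists, of which limma called 6 genes in gastrocnemius and 0 in TA. Of 17 measured upstream regulators, 3 rose and 1 fell in cSix1 KO muscle by limma, where 0.908% of all genes rose and 0.833% fell. Gadd45a, a stress gene that promotes fiber atrophy, rose by 1.06 on the log2 scale (SE 0.12, adjusted p = 0.00954), from 8.92, 8.59 and 8.79 to 10.05, 9.78 and 9.64. Hdac4, a histone deacetylase raised by denervation, rose by 0.67 (SE 0.12, adjusted p = 0.0387), from 9.94, 9.62 and 9.93 to 10.42, 10.71 and 10.38. Myog, the gene of myogenin, which activates Fbxo32 and Trim63 in denervated muscle, rose by 0.82 (SE 0.15, adjusted p = 0.0395), from 6.43, 6.36 and 6.32 to 7.53, 7.16 and 6.89. Its probe set was dim, at percentile 38.9 of all genes in control gastrocnemius, and an alternative that left out dim genes there did not include it. Each of the 3 had every cSix1 KO array above every control array, against 11% of all genes. They were named because they were called on these same arrays, so this separation adds no support.

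Mstn, the gene of myostatin, a secreted brake on muscle growth, fell by 1.41 on the log2 scale (SE 0.17, adjusted p = 0.0110), from 10.46, 10.50 and 10.17 to 8.79, 8.74 and 9.38. Of 16 measured genes for cullin complexes, ubiquitin conjugation and deubiquitination, 2 fell and 0 rose. Ube2b, a conjugating enzyme, fell by 0.45 (SE 0.08, adjusted p = 0.0370), from 12.53, 12.62 and 12.40 to 12.03, 12.14 and 12.03. Ube2d1, a conjugating enzyme known to work with Trim63 in vitro, fell by 0.39 (SE 0.07, adjusted p = 0.0350), from 12.40, 12.40 and 12.49 to 11.98, 12.04 and 12.10. In this list 15 of 16 genes were below 0, with a median of -0.16, and 10 of 16 had every cSix1 KO array below every control array, against 9.85% of all genes.

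Of these 6 calls, those of Gadd45a and Mstn were further from the threshold, though neither held in every fit. The calls of Ube2b, Ube2d1, Hdac4 and Myog were near it (limma adjusted p from 0.0350 to 0.0395). Leaving out 1 array ended that of Ube2b for each of the 6 arrays (adjusted p from 0.0502 to 0.147), and those of Ube2d1 (0.0951 to 0.141), Hdac4 (0.0744 to 0.125) and Myog (0.0600 to 0.156) for each array but cSix1 KO replicate 3. Gadd45a was not called without cSix1 KO replicate 2 (0.0502), nor Mstn without control replicate 2 (0.0539) or cSix1 KO replicate 2 (0.0536). The methods' t-test called none of the 6 after adjustment (0.144 to 0.245). In 1 fit of all 10 arrays Gadd45a and Mstn passed, and Ube2d1 (adjusted p = 0.0516), Ube2b (0.0942), Hdac4 (0.0842) and Myog (0.178) did not. With arrays centred on their median Hdac4 did not pass (0.0520).

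In the other lists of gastrocnemius limma called 0 genes. At an unadjusted limma p under 0.05, 8.44% of all genes were higher and 6.5% lower in cSix1 KO muscle. Of 23 other muscle ligases 1 was higher and 2 were lower at that level. These were Cbl, the paralog of Cblb, at 0.34 (SE 0.09, adjusted p = 0.109), Wwp1, a HECT ligase, at -0.36 (SE 0.07, adjusted p = 0.0570) and Ubr2, a ligase of the N-end rule, at -0.19 (SE 0.07, adjusted p = 0.274). Of 22 other Foxo family genes and targets 4 were higher and 2 lower at that level, with a median of -0.02, and their leading genes were Eif4ebp1 at 0.32, Cat at 0.29 and the autophagy kinase gene Ulk2 at -0.26. Of 13 substrates and partners 2 were higher and 3 lower, among them the myosin-binding protein genes Mybpc1 at 0.26 and Mybpc2 at -0.25 and the Z-disc gene Actn2 at 0.25. The t-test called 0 genes of these 3 lists after adjustment. Under other settings of limma 4 genes of these lists were called: Wwp1 without cSix1 KO replicate 3 (adjusted p = 0.0436) and in 5 alternative fits (down to 0.0163), Cbl with array weights (0.0417), Mybpc2 with an intensity trend and robust prior (0.0261), and Myom1, named after its values were seen, with array weights.

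**Figure D3:**
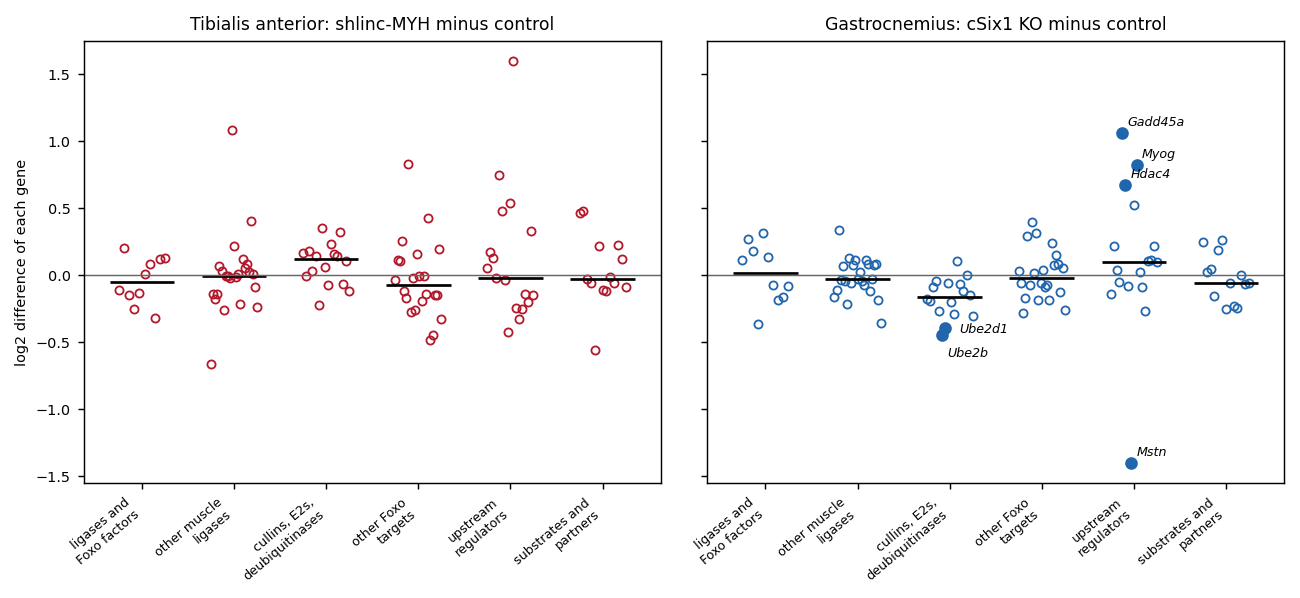
Log2 difference (y axis) of every measured gene of the 10 members and of the 5 related lists (x axis), TA on the left and gastrocnemius on the right; filled points passed limma at an adjusted p under 0.05 and bars are list medians. The members lie between -0.37 and 0.32, and Gadd45a (1.06), Myog (0.82), Hdac4 (0.67), Mstn (-1.41), Ube2b (-0.45) and Ube2d1 (-0.39) passed the test in gastrocnemius.

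In TA limma called 0 genes of the 5 lists, with 13 of 91 genes at an unadjusted p under 0.05, against 8.65% of all genes, and 0 by the adjusted t-test. In 1 fit of all 10 arrays, which called 131 genes in TA, 4 of the 91 passed, Klhl40 (adjusted p = 0.00515), Asb15 (0.0435), Myog (0.0450) and Des (0.0423). Klhl40, a muscle adaptor of a cullin ligase, was at 1.08 on the log2 scale (SE 0.12, interval 0.79 to 1.37, adjusted p = 0.114), with log2 signals of 6.81 and 6.76 in control fibers and 7.80 and 7.93 with shlinc-MYH. Asb15, a SOCS box protein of cullin ligases, was at -0.66 (SE 0.12, adjusted p = 0.319), from 8.18 and 8.14 to 7.43 and 7.57. Among upstream regulators Myog gave 6.31 and 5.16 in control fibers and 7.19 and 7.48 with shlinc-MYH, a log2 difference of 1.60 (SE 0.35, adjusted p = 0.423). Gadd45a gave 8.33 and 8.09 and then 8.96 and 8.95, a log2 difference of 0.74 (SE 0.13, adjusted p = 0.306).

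Among the Foxo targets of TA, Ctsl, a lysosomal protease gene, was at 0.83 (SE 0.21, adjusted p = 0.455), the autophagy gene Map1lc3b at -0.49 (SE 0.14, adjusted p = 0.487) and the pyruvate dehydrogenase kinase gene Pdk4 at -0.45 (SE 0.17, adjusted p = 0.549). Of these 22 genes 7 were above 0 and 15 below 0, with a median of -0.08. Among substrates, Irs1, which Fbxo40 and Cblb act on, was at -0.56 (SE 0.13, adjusted p = 0.431), and the intermediate filament gene Des, a Trim32 substrate, at 0.47 (SE 0.12, adjusted p = 0.455).

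For the difference between the 2 interventions limma called 0 genes of the 5 lists, with 13 of 91 at an unadjusted p under 0.05, against 12.3% of all genes. Klhl40 came nearest, at 0.97 (SE 0.16, interval 0.62 to 1.32, adjusted p = 0.0533), and its gastrocnemius arrays gave 9.32, 9.20 and 9.29 in control and 9.60, 9.33 and 9.22 in cSix1 KO muscle. Ube2d1 was at 0.75 (SE 0.13, interval 0.46 to 1.04, adjusted p = 0.0612), with log2 signals in TA of 9.02 and 9.18 in control fibers and 9.55 and 9.36 with shlinc-MYH. Mstn was at 0.98 (SE 0.36, adjusted p = 0.306) and Gadd45a at -0.31 (SE 0.19, adjusted p = 0.546).

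**Figure D4:**
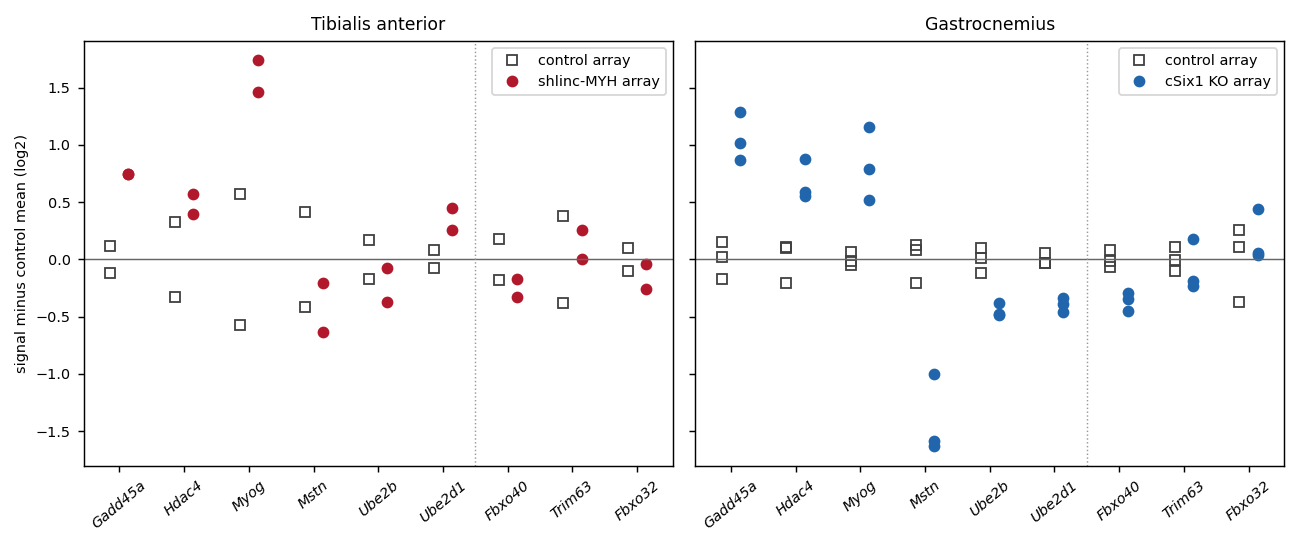
Log2 signal of each array minus the control mean of its muscle (y axis) for the 6 regulator and enzyme genes called in gastrocnemius and, right of the dotted line, for Fbxo40, Trim63 and Fbxo32 (x axis); squares are control and circles shlinc-MYH or cSix1 KO arrays. In gastrocnemius the circles of the 6 genes, which were named because they were called on these arrays, and of Fbxo40 stand clear of the squares. The circles of Trim63 and Fbxo32 mix with the squares.

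Some marker lists of other cells lay on one side of 0 in each muscle, and their part in the values above was not tested. In TA all 10 endothelial markers were below 0, with a median log2 difference of -0.59 and 0 called by limma and by the t-test. Of them 7 had an unadjusted limma p under 0.05, against 8.65% of all genes in either direction. Their mean signal per array was 6.80 and 6.87 in control fibers and 5.98 and 6.53 with shlinc-MYH. All 7 smooth muscle (median -0.44), 5 adipocyte (-0.23) and 4 Schwann cell and nerve markers (-0.24) were also below 0. So were 11213 of all 19938 genes. Unlike those of the endothelial list, the mean signals per array of these 3 lists overlapped between groups. For smooth muscle they were 6.53 to 7.12 in control and 6.26 to 6.58 in shlinc-MYH fibers. For adipocytes they were 6.12 to 6.44 and 5.86 to 6.27, and for Schwann cells and nerve 4.79 to 5.19 and 4.75 to 4.82. In gastrocnemius all 8 macrophage markers were above 0, with a median of 0.74 and Mrc1 called (0.77, adjusted p = 0.0139), and their mean signal was 7.58 to 7.78 in control and 8.02 to 8.82 in cSix1 KO muscle. All 7 fibroblast (median 0.33), 5 neutrophil (0.24) and 5 adipocyte markers (0.29) were above 0, as were 4 of 5 satellite cell markers (0.24), with 6, 2, 0 and 2 at an unadjusted limma p under 0.05 and 0 called. Over all genes of gastrocnemius 8.44% were higher and 6.5% lower at that level. The neutrophil probe sets were dim, between percentiles 5.5 (Ly6g) and 35.8 (S100a9) of all genes in control gastrocnemius. The mean signals per array of the adipocyte markers overlapped, at 8.05 to 8.63 in control and 8.19 to 8.83 in cSix1 KO gastrocnemius. All 7 fiber markers were below 0 there (median -0.10, 1 at an unadjusted p under 0.05, 0 called), with a mean signal of 13.69 to 13.73 in control and 13.55 to 13.61 in cSix1 KO muscle, and the fiber list had 6 of 7 below 0 in TA (median -0.17). The mean signal of the 10 members was 9.53 to 9.64 in control and 9.54 to 9.63 in cSix1 KO muscle, and 7.80 to 7.96 and 7.79 to 7.88 in TA.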

How the data were processed

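RNA of mouse TA and gastrocnemius was measured on 10 arrays. The authors deposited log2 signals made by RMA from the scanned arrays; the submitters' processing notes name RMA and Partek without versions, the methods name R, and whether both muscles were normalized in 1 run is not given in the sources used here. RMA compresses bright and dim signals, and it hides a shift common to all genes. Arrays give no read depth, and their number limits the precision.

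Of 35556 probe sets, 21789 carried 1 gene symbol, 1621 several and 12146 none; 21698 were matched by Entrez number to RefSeq (GRCm38.p6), which changed 0 symbols. Only probe sets with 1 symbol were used, and for 999 genes with more than 1, the brightest on average over the 10 arrays. Each muscle was fitted with limma 3.58.1 in R 4.3.3 (lmFit, eBayes), and p-values were adjusted by Benjamini-Hochberg over 19938 genes, with calls at 0.05; the difference between muscles was a contrast in 1 fit of 4 groups. The fits were tested on simulated data. The t-tests were computed in R with a pooled variance. Python 3.11.15 with pandas 2.3.3 and matplotlib 3.10.9 (plots) did the rest.

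The members and lists were chosen with earlier results of these data known. All members were named, and of each further list every called gene up to 4, or otherwise the 3 with the largest moderated statistic whose groups did not overlap; the text gives the leading ones where these were not called. Genes with a pattern like Fbxo32 or Trim63 were to be named only if either changed by more than 0.3 on the log2 scale, which neither did. Alternatives were quantile normalization, centring, leaving out dim genes, averaged probe sets, 1 fit of all 10 arrays, eBayes with trend and robust prior, limma array weights, a block for the replicate number, the methods' unpaired t-test, and each array left out in turn. Slide, scan date and background correction were not used here, as the value table does not hold them. Some listed genes are not reported here.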

Additional observations from a re-analysis of the deposited data

How the results depend on the processing

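The count of members called was 0 in TA and for the difference between muscles under every alternative run. In gastrocnemius it was 1, Fbxo40, with arrays centred on their median (adjusted p = 0.0433), with dim genes left out (0.0355), with an intensity trend and robust prior (0.0207) and with array weights (0.0225), and 0 under the others; with arrays left out it ran from 0 to 1, and was 1 without cSix1 KO replicate 3. Leaving out dim genes in gastrocnemius also left out Trim32, so that count covered the other members, adjusted over fewer genes. The Fbxo40 difference stayed between -0.41 and -0.32 throughout. The median of the members in gastrocnemius was -0.0295 with centring and ran from -0.0303 to 0.0489 with arrays left out, that for the difference between muscles from -0.13 to 0.11, and that in TA from -0.14 to 0.03. Foxo3 in TA was -0.0105 with quantile normalization, and the Fbxo30 difference between muscles was 0.0090 with centring. With single arrays left out the TA values changed sign for Trim63 (-0.25 to 0.51), Trim55 (-0.0093 to 0.24), Trim32 (-0.0115 to 0.17), Cblb (-0.35 to 0.13) and Foxo3 (-0.17 to 0.19), the gastrocnemius value for Fbxo32 (-0.0089 to 0.31), and the difference between muscles for Trim63 (-0.17 to 0.59), Fbxo40 (-0.0655 to 0.30), Cblb (-0.46 to 0.0176), Foxo3 (-0.31 to 0.0518), Fbxo30 (-0.20 to 0.0566) and Trim54 (-0.44 to 0.17). The cause was not tested; each leaves fewer arrays in the fit. Klhl40 in TA had an adjusted p of 0.00515 to 0.644 over the other alternatives, and for the difference between muscles of 0.0303 to 0.0904.

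The replicate numbers were not shown to pair the arrays. In TA, where the methods describe both legs of a mouse but the labels tie no number to an animal, deviations of same-numbered arrays correlated at 0.19. With 2 arrays a group that value fixes the -0.19 of the other pairs, so TA offers no comparison. In gastrocnemius the correlations were 0.22, -0.14 and 0.08 for arrays of the same number and ran from -0.36 to 0.29 for the others. With the replicate number as a block, 0 members were called in each comparison, with medians of -0.05 in TA, 0.02 in gastrocnemius and -0.10 for the difference, and Ube2b (adjusted p = 0.0715), Ube2d1 (0.0896) and Hdac4 (0.105) were no longer called. Over all genes limma called 3 in TA (0 to 131 under alternatives, 5 with the block), 347 in gastrocnemius (4 to 989, 186 with the block, 51 to 560 with arrays left out) and 29 for the difference (16 to 48, 24 with the block, 6 to 100 with arrays left out). For the difference, the t-test and each muscle alone were not run.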
